A study of Mus musculus with 12 samples.

Results

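The genes described here encode the enzymes and carriers of glycolysis, of lactate and pyruvate handling and of the citric acid cycle. They were taken from a list of 48 gene symbols, matched to the Entrez gene numbers of the deposited table through the platform annotation. In all, 47 of the 48 were measured, among 24570 named genes: 17 of glycolysis, 17 of lactate and pyruvate and 13 of the citric acid cycle. The pyruvate carrier gene Mpc1 was not analysed here. Whole retinas of male C57BL/6J mice of 6 diabetic animals were set against those of 6 age-matched non-diabetic animals, with 1 array per animal. Diabetes was induced with streptozotocin, which kills the beta cells that secrete insulin. Per the labels' protocols, 1 dose of 160 mg/kg went into the peritoneum at an age of 8 weeks and a weight of 24 to 26 g, and after 7 days an animal counted as diabetic with over 15 mM glucose in blood. The retinas were collected at 6 weeks, which the labels of the diabetic animals count from induction and the series text calls the age, so the age at death is not settled here. The label numbers of the animals fall into separate ranges in the groups, and if they mark cohorts, cohort and diabetes cannot be told apart.

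Glycolysis splits glucose into pyruvate in the cytosol, and lactate dehydrogenase turns pyruvate into lactate. Pyruvate that enters the mitochondrion is made into acetyl-CoA by the pyruvate dehydrogenase complex and is burnt in the citric acid cycle. The retina is known for making much lactate even when oxygen is present, largely in photoreceptors, and lactate passes between photoreceptors, Mueller glia and pigment epithelium through monocarboxylate transporters.

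In diabetic retinas 43 of the 47 genes differed from controls by less than 0.2 on the log2 scale. Suclg1, the alpha subunit shared by the succinyl-CoA ligases of the citric acid cycle, fell by 0.24 ± 0.04 on the log2 scale (SE, n = 6 per group; limma, adjusted p = 0.0168 over all genes). None of the other 46 passed. Suclg2, the beta subunit that pairs with Suclg1 to make the GTP-forming ligase, had a change of 0.28 ± 0.07 with an adjusted p of 0.0595 in limma. Hexokinase 2 (Hk2) differed by 0.38 ± 0.11 and the mitochondrial isocitrate dehydrogenase Idh2 by 0.34 ± 0.10, and neither passed.

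Called were 1 of 47 (2.13%), beside 3.24% of all 24570 genes, so the count of calls is near the background. None of the 47 was called higher, beside 1.47% of all genes, and 1 was called lower, beside 1.77%. In limma 5 higher and 7 lower members had an unadjusted p under 0.05. These 12 are 25.5% of the members, beside 21.0% of all genes. At a threshold of 0.10, 5 were called (10.6%), beside 8.01% of all genes. With a variance trend in limma 4 were called, beside 3.47% of all genes, and with the test limited to genes at or above the median level also 4, beside 6.8% of those genes. In both settings Hk2, Idh2 and Suclg2 joined Suclg1. The count was also 4 without control 4, where Hk2, Pfkfb2 and Suclg2 joined, beside 2.89% of all genes. It was 2 without diabetic 5, where Idh2 joined, beside 2.22%, and 0 without both diabetic 2 and diabetic 6, beside 1.54%. In that last run 10 members had an unadjusted p under 0.05 in limma. The share of all genes at that p is not given for this run. The groups did not overlap for 1 member, Suclg1 (2.13%), beside 2.84% of all genes. The median change was -0.0062, with 22 members above 0 and 25 below, and it was -0.0018 over all genes. Hk2, Idh2, Suclg1 and Suclg2 differed by 0.2 or more on the log2 scale, which is 4 of 47 (8.51%), beside 4.05% of all genes. The median size of the change, without its sign, was 0.065 for the members and 0.034 for all genes. The sets differ in level: 3 members lay below the array median, beside 12296 of all 24570 genes. The median SE was 0.047 for the members and 0.033 for all genes. These shares and sizes were not adjusted for level. Adjusted p-values below are limma's, with Benjamini-Hochberg adjustment over all genes.

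**Figure D1:**
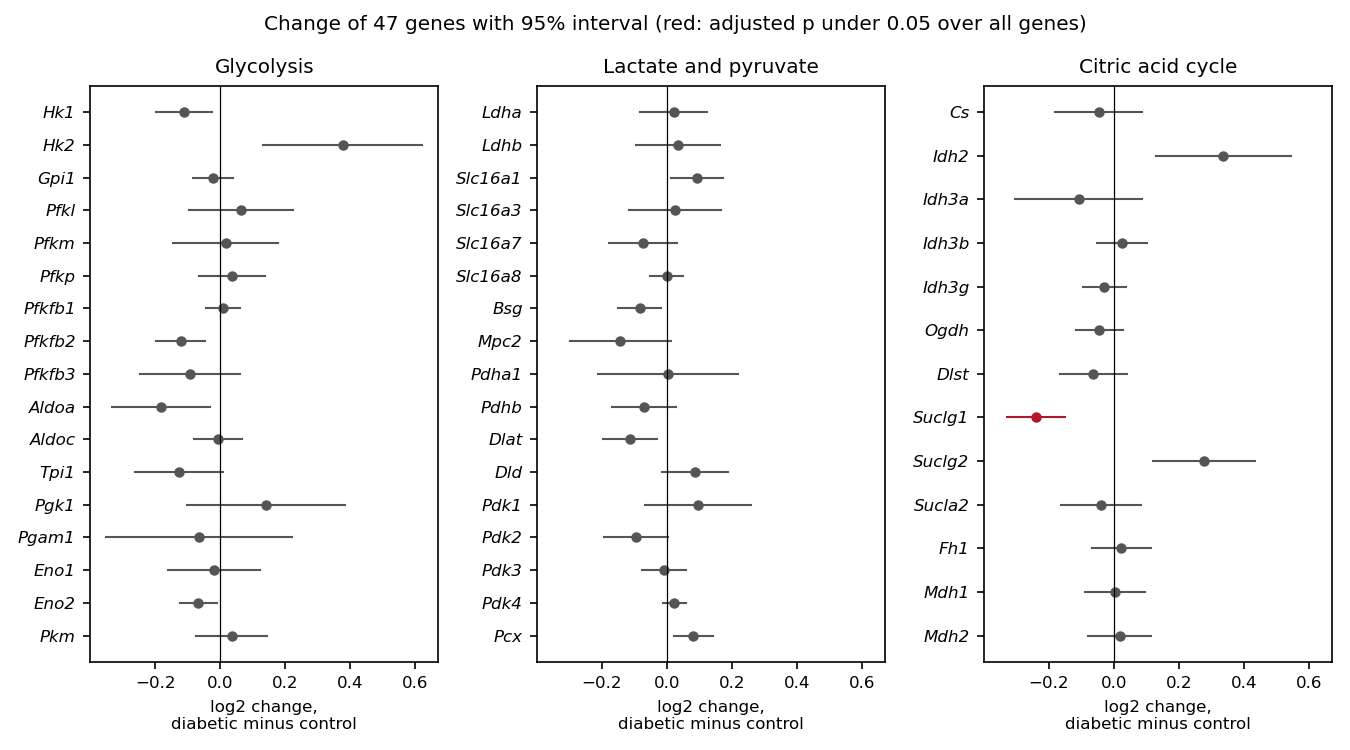
Each point is the log2 change of a gene in diabetic minus control retinas (x axis, log2 units), with its 95% interval from limma as a line, in 3 panels for the 17 genes of glycolysis, 17 of lactate and pyruvate and 13 of the citric acid cycle. Suclg1 at -0.24 is the only gene past the test (red), and most points lie within 0.2 of 0.

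Values are log2 RMA values (robust multi-array average), and a gene's level is compared with itself across arrays. The difference of 2 genes within an array is also compared only across arrays, and its size is not read as a ratio of RNA amounts. The array median is used only to show how dim a gene's line is. The values of every array share 1 distribution, from 5.07 to 14.10 with 5.73 as the median, and correlations between arrays ran from 0.993 to 0.998. The tissue was checked against markers: the 12 rod markers averaged 12.49 to 12.59 in controls and 12.45 to 12.58 in diabetic retinas (summed level 149.9 to 151.1 against 149.4 to 150.9). The 10 Mueller glia markers averaged 10.12 to 10.38 and 10.14 to 10.35, and in neither list did a gene pass the test. Of 10 cone markers, 1 passed, lower in diabetic retinas. Markers of the lens averaged 6.10 to 6.74 in controls and 5.97 to 7.73 in diabetic retinas, highest in diabetic 6 and next in diabetic 2. Pigment epithelium markers averaged 6.58 to 7.25 in controls and 6.55 to 7.71 in diabetic retinas. The 6 measured red blood cell and 8 skeletal muscle markers never reached 6. In whole retina, fewer cells of a type and less RNA per cell cannot be told apart.

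Hexokinases trap glucose in the cell as a phosphate and open glycolysis. Hk2 is the hexokinase that photoreceptors are known to use for aerobic glycolysis. The promoter of Hk2 is shown because this gene had the highest change of all members, as the 250 bases before the annotated start (RefSeq, GRCm38.p6, chr6:82774455-82774704, minus strand). Capitals mark matches to ACGTG, the core shared by hypoxia response elements and many E-boxes, or to the GC box GGGCGG, on either strand.
Hk2: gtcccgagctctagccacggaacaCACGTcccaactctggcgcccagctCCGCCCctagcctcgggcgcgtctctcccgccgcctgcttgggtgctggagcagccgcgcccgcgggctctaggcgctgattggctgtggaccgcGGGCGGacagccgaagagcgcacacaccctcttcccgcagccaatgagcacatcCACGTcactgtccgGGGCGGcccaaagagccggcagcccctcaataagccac
The window held 2 matches to ACGTG and 3 to the GC box, and none to CGGAAG (the core of ETS factors such as GABPA), TGCGCA (the core of NRF1 sites) or AAGGTCA (the half-site of estrogen-related receptors).

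Hk2 in controls had a lowest value of 9.78, a median of 10.01 and a highest of 10.58, and in diabetic retinas 10.29, 10.43 and 10.61. All 6 diabetic arrays lay above the control mean, and the groups overlapped through 1 control array, control 4, which lay at 10.58. The change was 0.38 ± 0.11 (95% interval 0.13 to 0.62; adjusted p = 0.0865). Without control 4 it was 0.48 and passed (adjusted p = 0.0127), whereas without any other single array it did not, with adjusted p-values up to 0.158. In 11 other settings they ran from 0.0378 to 0.225, and 2 passed. The arrays highest for Hk2, diabetic 2 (10.61), control 4 (10.58) and diabetic 6 (10.53), were also those highest in lens markers. With the lens markers as a covariate the change was 0.33 (adjusted p = 0.136). Without diabetic 2 and diabetic 6 it was 0.32 (adjusted p = 0.225). Whether lens tissue bears on the Hk2 values was not tested.

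Hk1, the hexokinase of most neurons, ran the other way. In controls it had a lowest value of 11.03, a median of 11.15 and a highest of 11.23, and in diabetic retinas 10.94, 11.01 and 11.14. The groups overlapped, and the change of -0.11 ± 0.04 did not pass (adjusted p = 0.140). The difference of Hk2 and Hk1 within an array, on the log2 scale, was -1.06 ± 0.28 (SD, n = 6) in controls and -0.57 ± 0.09 in diabetic retinas. It was higher in diabetic retinas by 0.49, again with control 4 alone (-0.58) inside the diabetic range of -0.72 to -0.44. This ratio is given as a description with no test. Gpi1, which isomerizes the hexose phosphate, differed by -0.02 ± 0.03 (95% interval -0.08 to 0.04).

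**Figure D2:**
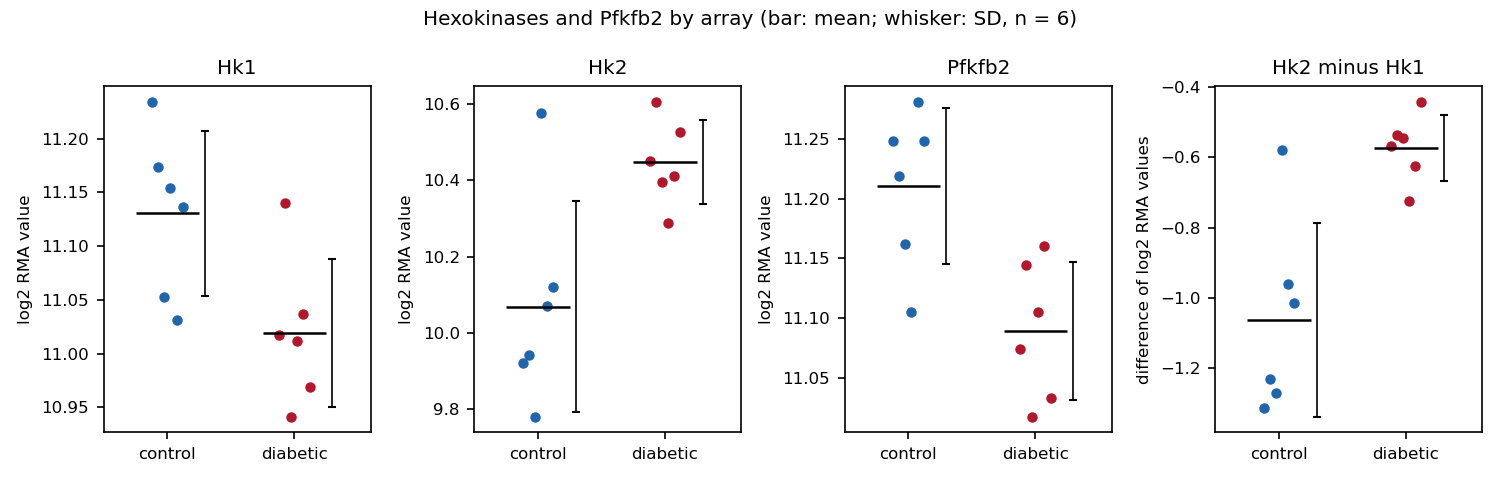
Log2 RMA values (y axis) of Hk1, Hk2 and Pfkfb2 and the within-array difference of Hk2 and Hk1, for 6 control and 6 diabetic retinas (x axis), with 1 point per array, the mean as a bar and the SD as a whisker. For Hk2 and for the difference, control 4 lies among the diabetic arrays and the other 5 controls lie below them.

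Phosphofructokinase commits the sugar to glycolysis and is made of liver, muscle and platelet type subunits. The subunit genes Pfkl (0.07 ± 0.07), Pfkm (0.02 ± 0.07) and Pfkp (0.04 ± 0.05) did not differ beyond their spread. The bifunctional Pfkfb enzymes make and break the sugar bisphosphate that activates phosphofructokinase. Pfkfb2 in controls had a lowest value of 11.11, a median of 11.23 and a highest of 11.28, and in diabetic retinas 11.02, 11.09 and 11.16. All 6 diabetic arrays lay below the control mean, and 1 control, control 4, lay within the diabetic range. The change was -0.12 ± 0.03 (adjusted p = 0.0742), and without control 4 it was -0.14 and passed (adjusted p = 0.0380); it did not pass without any other single array, with adjusted p-values up to 0.135, nor in 11 other settings (0.0641 to 0.137). Pfkfb3, the form best known from proliferating and endothelial cells, differed by -0.09 ± 0.07 (adjusted p = 0.491). Pfkfb1, the liver and muscle form, had a control mean of 5.62, below the array median, and differed by 0.01 ± 0.02.

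Aldolases split the sugar, and triose phosphate isomerase (Tpi1) interconverts the products. Aldoa in controls had a lowest value of 6.97, a median of 7.23 and a highest of 7.42, and in diabetic retinas 6.89, 7.02 and 7.14. All diabetic arrays lay below the control mean, but 2 controls lay within the diabetic range. The change of -0.18 ± 0.07 did not pass (adjusted p = 0.163). Tpi1 differed by -0.13 ± 0.06 (adjusted p = 0.270) and the brain form Aldoc by -0.01 ± 0.03 (95% interval -0.08 to 0.07).

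The enzymes of the later steps, which yield ATP, did not pass either. Neuronal enolase (Eno2) had values of 11.13 to 11.23 in controls, with a median of 11.17, and of 11.02 to 11.17 in diabetic retinas, with a median of 11.12. Its change was -0.07 ± 0.03 (adjusted p = 0.180), with all 6 diabetic arrays below the control mean and overlapping groups. Phosphoglycerate kinase (Pgk1) differed by 0.14 ± 0.11 and pyruvate kinase (Pkm) by 0.04 ± 0.05. The 95% interval of Pkm ran from -0.07 to 0.15, and the line does not part the splice forms of this gene. Phosphoglycerate mutase (Pgam1) was among the least precise, with a change of -0.06 ± 0.13. Eno1 differed by -0.02 ± 0.06.

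Some lines of glycolytic genes may be uncertain: some of these genes have copies, and whether the probes tell them apart was not checked. Counted by names built on a member's own symbol, RefSeq has 5 copies of Aldoa, of which 2 have a line of their own in the table. It has 3 of Pgk1, 3 of Ldha, 2 of Pgam1 and 1 of Ldhb. Copies under other names were not counted, and the likeness of the sequences was not measured. Pgk1 (control mean 5.94) and Eno1 (6.43), enzymes that every cell uses, had low levels, near the median of the arrays. For Eno1 this count found 0 copies, and whether copies bear on any of these levels was not tested.

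Lactate dehydrogenase exchanges pyruvate and lactate. Its A subunit gene Ldha had values of 11.86 to 12.09 in controls, with a median of 11.89, and of 11.86 to 12.10 in diabetic retinas, with a median of 11.92. The B subunit gene Ldhb had values of 9.52 to 9.82 in controls, with a median of 9.71, and of 9.61 to 9.89 in diabetic retinas, with a median of 9.70. For Ldha the groups overlapped over nearly their whole range. For Ldhb 5 controls lay within the diabetic range, and 2 diabetic arrays lay above the highest control. Ldha differed by 0.02 ± 0.05 (95% interval -0.08 to 0.12; adjusted p = 0.848) and Ldhb by 0.03 ± 0.06 (-0.09 to 0.16; adjusted p = 0.787). The difference of Ldha and Ldhb within an array was 2.22 ± 0.19 (SD, n = 6) in controls and 2.21 ± 0.18 in diabetic retinas.

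Monocarboxylate transporters carry lactate and pyruvate across the cell membrane, and basigin (Bsg) is the partner that brings them there. The transporter gene Slc16a1 had values of 10.96 to 11.16 in controls, with a median of 11.05, and of 11.09 to 11.25 in diabetic retinas, with a median of 11.14. All 6 diabetic arrays lay above the control mean, but the groups overlapped. Its change was 0.09 ± 0.04 (adjusted p = 0.171). Bsg had values of 11.93 to 12.08 in controls, with a median of 12.01, and of 11.84 to 11.99 in diabetic retinas, with a median of 11.92. All 6 diabetic arrays lay below the control mean, the groups overlapped, and the change was -0.08 ± 0.03 (adjusted p = 0.134). The neuronal form Slc16a7 (-0.07 ± 0.05; adjusted p = 0.412) and Slc16a3, known from glycolytic cells (0.02 ± 0.07), did not pass. Slc16a8, the form of the pigment epithelium, had a mean of 5.50 in controls, below the array median.

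The mitochondrial pyruvate carrier is a complex of Mpc1 and Mpc2. Mpc2 had values of 7.08 to 7.30 in controls, with a median of 7.14, and of 6.79 to 7.28 in diabetic retinas, with a median of 7.04. In diabetic retinas 5 of 6 arrays lay below the lowest control, while diabetic 5 lay at 7.28, close to the highest control. The change was -0.14 ± 0.07 (adjusted p = 0.278).

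The pyruvate dehydrogenase complex joins glycolysis to the citric acid cycle. Dlat, its acetyltransferase core, had values of 8.29 to 8.36 in controls, with a median of 8.31, and of 8.06 to 8.31 in diabetic retinas, with a median of 8.19. Of the diabetic arrays, 6 of 6 lay below the control mean and 4 below the lowest control, and the change of -0.11 ± 0.04 did not pass (adjusted p = 0.113). Dld, the dehydrogenase that this complex shares with the oxoglutarate complex, differed by 0.09 ± 0.05 (adjusted p = 0.316) and Pdhb, a subunit of the first enzyme, by -0.07 ± 0.05 (adjusted p = 0.411). The other subunit of that enzyme, Pdha1, differed by 0.00 ± 0.10. The kinases Pdk1 to Pdk4 switch the complex off. Pdk4, which rises with fasting and diabetes in muscle and heart, had a mean of 5.35 in controls and 5.37 in diabetic retinas, below the array median. At this level a change may be missed. Pdk1 (0.10 ± 0.07; adjusted p = 0.500), Pdk2 (-0.10 ± 0.04; adjusted p = 0.248) and Pdk3 (-0.01 ± 0.03) did not pass.

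Pyruvate carboxylase (Pcx), which makes oxaloacetate from pyruvate and in nervous tissue is mainly glial, had values of 5.77 to 5.86 in controls, with a median of 5.82, and of 5.81 to 5.96 in diabetic retinas, with a median of 5.89. In diabetic retinas 5 of 6 arrays lay above the highest control. The change was 0.08 ± 0.03 (adjusted p = 0.119), at a level close to the array median.

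Succinyl-CoA ligase turns succinyl-CoA into succinate and makes a nucleoside triphosphate in the same step. Its alpha subunit, Suclg1, pairs with either of 2 beta subunits: Suclg2 gives the GTP-forming enzyme and Sucla2 the ATP-forming enzyme. The promoters of the 3 genes are shown because Suclg1 alone passed the test among them, as the 250 bases before each annotated start (RefSeq, GRCm38.p6). Suclg1 lies at chr6:73248255-73248504 on the plus strand, Suclg2 at chr6:95718847-95719096 on the minus strand and Sucla2 at chr14:73552536-73552785 on the plus strand. Capitals mark matches to any of the 5 motifs searched for Hk2.
Suclg1: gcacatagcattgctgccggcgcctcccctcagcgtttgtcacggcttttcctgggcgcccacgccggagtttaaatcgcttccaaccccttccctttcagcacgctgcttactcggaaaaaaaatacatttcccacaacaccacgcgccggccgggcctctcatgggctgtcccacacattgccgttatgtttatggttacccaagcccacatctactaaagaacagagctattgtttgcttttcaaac
Suclg2: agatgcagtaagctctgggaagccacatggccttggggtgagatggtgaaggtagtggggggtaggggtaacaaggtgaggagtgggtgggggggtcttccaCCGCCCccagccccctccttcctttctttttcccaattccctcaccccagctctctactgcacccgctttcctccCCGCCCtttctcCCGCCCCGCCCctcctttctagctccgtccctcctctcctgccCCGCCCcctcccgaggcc
Sucla2: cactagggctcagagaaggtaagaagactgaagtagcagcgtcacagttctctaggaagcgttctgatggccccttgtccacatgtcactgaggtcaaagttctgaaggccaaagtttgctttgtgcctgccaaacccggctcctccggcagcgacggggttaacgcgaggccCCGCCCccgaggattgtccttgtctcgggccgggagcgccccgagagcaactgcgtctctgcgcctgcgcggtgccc
The Suclg1 window held none of the 5 motifs. The Suclg2 window held 5 GC boxes, of which a pair overlaps, and the Sucla2 window held 1. The share of G and C was 53.2% for Suclg1, 64.4% for Suclg2 and 61.2% for Sucla2.

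Suclg1 in controls had a lowest value of 7.59, a median of 7.76 and a highest of 7.86, and in diabetic retinas 7.47, 7.48 and 7.58. The groups did not overlap, with the highest diabetic array (diabetic 4) just under the lowest control (control 5). Group means were 7.74 ± 0.10 and 7.50 ± 0.04 (SD, n = 6), and the change was -0.24 ± 0.04 (95% interval -0.33 to -0.15; adjusted p = 0.0168). It passed in each of the 12 runs that left out 1 array, with adjusted p-values from 0.0069 to 0.0374. Without diabetic 2 and diabetic 6, the arrays highest in lens markers, the change was -0.23 and the call was lost (adjusted p = 0.0546), in a fit with 4 diabetic arrays. With the lens markers as a covariate on all 12 arrays it passed (adjusted p = 0.0317).

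Suclg2 in controls had a lowest value of 5.81, a median of 5.95 and a highest of 6.12, and in diabetic retinas 6.07, 6.21 and 6.47. All 6 diabetic arrays lay above the control mean, and 1 control, control 4, lay within the diabetic range. The change was 0.28 ± 0.07, or 1.21-fold (95% interval 0.12 to 0.44; adjusted p = 0.0595). It passed without control 4 (0.31; adjusted p = 0.0487) but without any other single array it did not, with adjusted p-values up to 0.113. In 11 other settings they ran from 0.0296 to 0.136, and 3 passed. The control mean of 5.96 lay near 5.73, the median of the arrays, where array values follow the RNA amount less closely.

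Sucla2 in controls had a lowest value of 9.99, a median of 10.05 and a highest of 10.21, and in diabetic retinas 9.88, 10.03 and 10.23. Every control lay within the diabetic range, and the change was -0.04 ± 0.06 (95% interval -0.16 to 0.08; adjusted p = 0.737). The difference of Suclg2 and Sucla2 within an array was -4.11 ± 0.10 (SD, n = 6) in controls and -3.79 ± 0.20 in diabetic retinas, with control 4 alone inside the diabetic range. The difference of Suclg2 and Suclg1, a pair chosen after their values were seen, was -1.78 ± 0.13 in controls and -1.27 ± 0.16 in diabetic retinas, with no overlap. Neither ratio was tested. None of the 13 isoform ratios of the planned list, Suclg2 to Sucla2 among them, was without overlap.

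**Figure D3:**
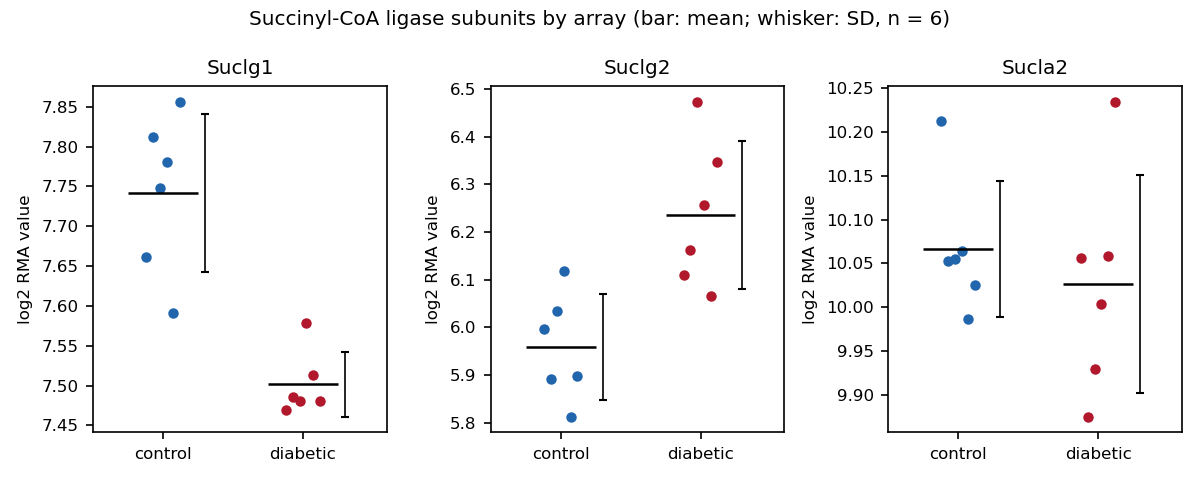
Log2 RMA values (y axis) of the alpha subunit gene Suclg1 and the beta subunit genes Suclg2 and Sucla2 in 6 control and 6 diabetic retinas (x axis), with 1 point per array, the mean as a bar and the SD as a whisker. Diabetic arrays lie at 7.47 to 7.58 for Suclg1, below all controls at 7.59 to 7.86, and mostly above controls for Suclg2, while the groups overlap for Sucla2.

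Isocitrate dehydrogenases remove the first carbon of the cycle: Idh3a, Idh3b and Idh3g build the NAD-linked enzyme and Idh2 is the NADP-linked mitochondrial enzyme. Idh2 in controls had a lowest value of 6.64, a median of 6.76 and a highest of 6.97, and in diabetic retinas 6.83, 7.19 and 7.41. In diabetic retinas 6 of 6 arrays lay above the control mean and 4 above the highest control, while diabetic 5 and diabetic 6 lay within the control range. The change was 0.34 ± 0.10, or 1.26-fold (95% interval 0.13 to 0.55; adjusted p = 0.0752). Without diabetic 5 it was 0.40 and passed (adjusted p = 0.0425), and without any other single array it did not, with adjusted p-values up to 0.134. In 11 other settings they ran from 0.0342 to 0.130, and 2 passed. Of the NAD-linked enzyme, Idh3a differed by -0.11 ± 0.09 (adjusted p = 0.530), Idh3b by 0.02 ± 0.03 and Idh3g by -0.03 ± 0.03.

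The remaining citric acid cycle genes were nearly level. Citrate synthase (Cs), which opens the cycle, differed by -0.05 ± 0.06. The oxoglutarate dehydrogenase genes Ogdh (-0.05 ± 0.03; adjusted p = 0.471) and Dlst (-0.06 ± 0.05; adjusted p = 0.481) did not pass. Fumarase (Fh1) differed by 0.02 ± 0.04, the cytosolic malate dehydrogenase Mdh1 by 0.00 ± 0.04 (95% interval -0.09 to 0.10) and the mitochondrial Mdh2 by 0.02 ± 0.04 (-0.08 to 0.12).

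Of the other genes of the pathway, a list of 53 enzymes and carriers next to the members, 52 were measured. In limma 4 were called higher and 2 lower in diabetic retinas (11.5%, beside 3.24% of all genes), with a median change of -0.0098. The list was chosen with earlier results of these data known, so this share is only a description. It was also not adjusted for level: 9 of the 52 lay below the array median, beside 12296 of all 24570 genes. With the test limited to genes at or above the median level, 4 were called, beside 6.8% of those genes. The groups did not overlap for 5 of the 52 (9.62%), beside 2.84% of all genes. These are the genes past the test other than Ogdhl. Of the 17 genes of glycolysis and its bypass 1 was called higher and 1 lower. Of the 10 of lactate and pyruvate 2 were called higher, and of the 9 of the citric acid cycle 1 was called higher and 1 lower. None of the 9 shuttle genes or of the 7 of the pentose phosphate branch passed. There 3 (33.3%) and 2 (28.6%) had an unadjusted p under 0.05 in limma, beside 21.0% of all genes.

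Pgm2, of the phosphoglucomutase family, had values of 6.26 to 6.47 in controls, with a median of 6.35, and of 6.48 to 6.63 in diabetic retinas, with a median of 6.54. It rose by 0.20 ± 0.04 (adjusted p = 0.0199). Its relative Pgm1, the phosphoglucomutase that links glycogen to glycolysis, differed by 0.19 ± 0.06 (adjusted p = 0.0925), and is named here after its value was seen. G6pc3, a widely expressed member of the glucose-6-phosphatase family, had values of 9.23 to 9.34 in controls, with a median of 9.26, and of 9.05 to 9.23 in diabetic retinas, with a median of 9.15. It fell by 0.12 ± 0.03 (adjusted p = 0.0411), and the groups did not overlap although the nearest arrays round to the same 9.23.

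Pdpr, the regulatory subunit of the phosphatase that switches pyruvate dehydrogenase back on, had values of 7.66 to 7.93 in controls, with a median of 7.88, and of 7.95 to 8.19 in diabetic retinas, with a median of 8.09. It rose by 0.23 ± 0.05 (adjusted p = 0.0402), while the catalytic subunit genes Pdp1 (-0.09 ± 0.07) and Pdp2 (0.03 ± 0.04) did not pass. Ldhd, a mitochondrial dehydrogenase of the mirror form of lactate, had values of 5.38 to 5.45 in controls, with a median of 5.43, and of 5.51 to 5.57 in diabetic retinas, with a median of 5.55. It rose by 0.12 ± 0.02 (adjusted p = 0.0078), and its level lay below the median of the arrays.

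Ogdhl, a neural relative of Ogdh, had values of 8.21 to 8.34 in controls, with a median of 8.27, and of 8.04 to 8.22 in diabetic retinas, with a median of 8.09. It fell by 0.16 ± 0.04 (adjusted p = 0.0351), whereas Ogdh itself did not pass. Sdha, the flavoprotein of succinate dehydrogenase, which takes up the product of succinyl-CoA ligase, had values of 11.17 to 11.30 in controls, with a median of 11.25, and of 11.33 to 11.44 in diabetic retinas, with a median of 11.37. It rose by 0.13 ± 0.02 (adjusted p = 0.0199), and the other subunit genes Sdhb (0.04 ± 0.05), Sdhc (-0.06 ± 0.06) and Sdhd (0.01 ± 0.06) did not pass. Ldhd, Pgm2 and Sdha passed in each of the 12 runs that left out 1 array. Ogdhl lost the call in 8 of them, Pdpr in 9 and G6pc3 in 10. The count of 6 was 3 without control 1, control 4, control 6, diabetic 3 or diabetic 4. In these runs, in this order, the count of 797 over all 24570 genes was 464, 710, 428, 339 and 325. Without diabetic 2 and diabetic 6, the arrays highest in lens markers, 4 of these 6 genes passed, beside 379 of all genes. There Sdha (adjusted p = 0.0680) and Pdpr (adjusted p = 0.0692) did not pass. With the lens markers as a covariate Pdpr (adjusted p = 0.0717) and G6pc3 (0.0723) lost the call, and with the variance trend Ogdhl (0.0762) and G6pc3 (0.115). G6pc3 also lost it with the genes below the median left out (0.0694). Ldhd, whose level lies below that median, was not tested there, and Pgm2 passed in each of the 11 other settings.

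**Figure D4:**
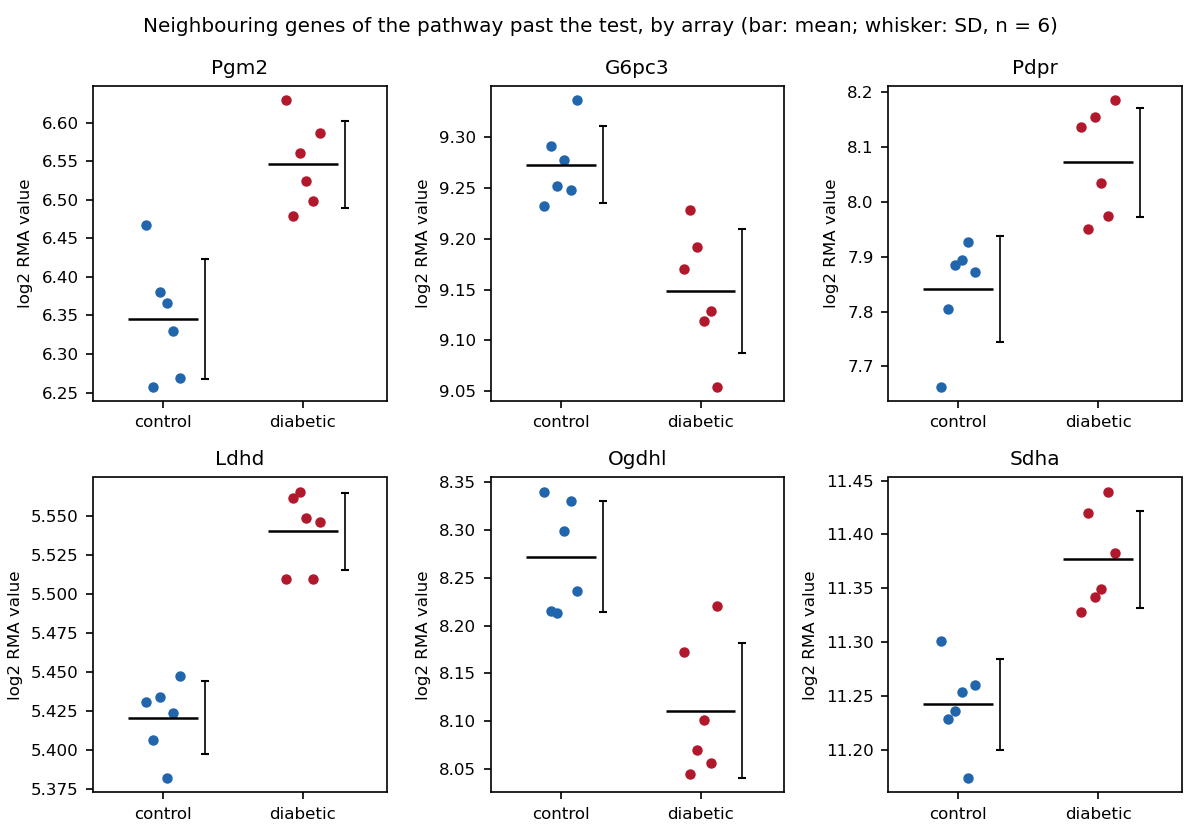
Log2 RMA values (y axis) of the 6 other genes of the pathway past the test, in 6 control and 6 diabetic retinas (x axis), with 1 point per array, the mean as a bar and the SD as a whisker. Pgm2, Pdpr, Ldhd and Sdha lie higher and G6pc3 lower in diabetic retinas with no overlap, and Ogdhl is lower with a small overlap.

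Promoter windows were found for 44 of the 47 measured members, with 69 windows in all, since some genes have several starts. ACGTG lay in 27 of 69 (39.1%), beside 16.6% of all 32851 windows of the same length. The GC box lay in 34 (49.3%, beside 32.7%), CGGAAG in 15 (21.7%, beside 13.6%), TGCGCA in 10 (14.5%, beside 6.43%) and AAGGTCA in 2 (2.90%, beside 4.08%). By step, ACGTG lay in 12 of 33 windows of glycolysis, 7 of 19 of lactate and pyruvate and 8 of 17 of the citric acid cycle, and CGGAAG in 5, 3 and 7. Member windows were richer in G and C (median 60.4%, beside 52.4%); the shares were not adjusted for this. A match is a description of these letters and not a binding site.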

How the data were processed

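Per the submitters' processing notes, the deposited log2 values were made with RMA; its version, the array model and how probes were grouped are not given in the sources used here. RMA forces the arrays onto 1 distribution (largest difference of sorted values 0), so a shift of most genes would not be visible. Of 24973 lines, 24015 were named by the platform annotation and 559 by RefSeq (GRCm38.p6); 399 were left out, and the brightest line was kept for 4 symbols, none a member. Changes were tested with limma 3.58.1 (R 4.3.3; lmFit, eBayes), as diabetic minus control in two-sided tests, adjusted by Benjamini-Hochberg over 24570 genes, at 0.05 with no filter. The members and lists were chosen with earlier results of these data known. Named were members past the test or without overlap, up to 3 of smallest p per role, neighbouring genes past the test, and members in isoform pairs. The remaining members were added to account for all, and Pgm1, Pdp1, Pdp2 and Sdhb to Sdhd after their values were seen. The procedure was checked on simulated data with independent noise. That check required recovery only of changes larger than that of any member, so it does not show how often changes as small as these are found. Alternatives covered the lines per gene, filters, centring, variance models, array weights, covariates, thresholds, the replicate number and each array left out. Precision is limited by the number of arrays; no background signal is given.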

Additional observations from a re-analysis of the deposited data

Results flagged for a closer look

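Among 146 groups of 6 arrays, for the genes reported and the isoform ratios, 7 (4.79%) had an array far from the other 5, judged by the gap to the nearest array over the whole range; chance gives about 1 in 20. Ldha in controls had a ratio of 0.725, through control 6 at 12.09. Mpc2 in controls had 0.659, through control 3 at 7.30, and Sucla2 in controls 0.655, through control 1 at 10.21. Pdk1 in diabetic retinas had 0.681, through diabetic 6 at 7.69, and Pdk3 there 0.740, again through diabetic 6, at 8.83. Sdhc in controls had 0.835, through control 5 at 8.71, and the difference of Pfkl and Pfkm in diabetic retinas had 0.702, through diabetic 1 at 2.20.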

How the results depend on the processing

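The call of Suclg1 held in the 12 runs without 1 array and in 10 of 11 other settings at 0.05, except without diabetic 2 and 6, a setting chosen after the data were seen. The count of members was 1, with 1 to 4 without 1 array. With genes at or above the 25th percentile it was 2, beside 893 genes called in that run. It was 4 at or above the median or with a variance trend and 0 without diabetic 2 and 6. At a threshold of 0.10 it was 5 and at 0.01 it was 0. Hk2, Idh2 and Suclg2 were the additions at or above the median and with the trend. Both counts of 0 are limma's. Without diabetic 2 and 6, 10 members had an unadjusted p under 0.05 in limma. The share of all genes at that p is not given for this run. With all arrays it was 21.0%, beside 12 members (25.5%). Over all genes the count of 797 was 325 to 835 without 1 array (lower by over 1.5 times without control 1, 2, 3 or 6 or diabetic 1, 3, 4 or 6), 506 with the replicate block, 464 with the lens covariate, 379 without diabetic 2 and 6, 1967 at 0.10 and 28 at 0.01. Of the other genes of the pathway it was 3 to 6 without 1 array, 2 with the replicate block (Ldhd and Pgm2; limma's adjusted p was 0.0810 for Sdha, 0.0834 for Pdpr, 0.0578 for Ogdhl and 0.103 for G6pc3), 10 at 0.10 and 1 at 0.01. Same-numbered animals did not deviate together, with correlations of -0.171 to 0.176 in 6 pairs. Of the 6 controls, 1 correlated best with its own number. No pairing by number was seen over the brighter genes, and a pairing that touches few genes was not tested. Of 59 genes reported, 16 had a turned sign in some setting; none of the 16 passed the test in any, and with all arrays their changes were at most 0.065 in size. Without 1 array, Aldoc ran from -0.026 to 0.011, Eno1 from -0.048 to 0.026, Gpi1 from -0.036 to 0.0013, Ldha from -0.010 to 0.054, Ldhb from -0.0010 to 0.0605, Mdh1 from -0.021 to 0.035, Mdh2 from -0.020 to 0.034, Pdha1 from -0.065 to 0.055, Pdk3 from -0.030 to 0.011, Pfkfb1 from -0.010 to 0.021, Pfkm from -0.026 to 0.059, Pgam1 from -0.114 to 0.030, Sdhd from -0.020 to 0.048, Slc16a3 from -0.0026 to 0.073 and Slc16a8 from -0.010 to 0.014. Without diabetic 2 and 6, Ldha was -0.013, Sdhb -0.0063, Sdhd -0.0091, Slc16a3 -0.020 and Slc16a8 0.020. With the lens covariate Pdha1 was -0.0068, Sdhd -0.0074 and Slc16a8 0.010; with the pigment epithelium covariate Mdh1 was -0.00026 and Pdha1 -0.0032; with array weights Pfkm was -0.0025 and Slc16a8 0.00997. The cause of these shifts was not tested.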
